A study of Mus musculus with 11 samples.

Results

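The Robo receptors, the Slit ligands and the Srgap genes are 10 genes of one guidance pathway, and their transcripts were followed here on 11 arrays of mouse kidney. They comprise 4 receptors (Robo1, Robo2, Robo3 and Robo4), 3 ligands (Slit1, Slit2 and Slit3) and 3 Slit-Robo GTPase-activating genes (Srgap1, Srgap2 and Srgap3). Members were taken by gene symbol from the platform annotation, and all 10 were found among the 18193 genes of the array, with 21 of its 45101 probe sets. The brightest probe set of a gene, by mean log2 intensity over the 11 arrays, is called its main probe set, and every other one is described beside it. No member was removed for dim signal.

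Wild-type kidneys and kidneys homozygous for a change of Robo2 were compared at embryonic day 17. The title series E17R2 held 3 wild-type and 3 homozygous arrays, the title series R2E17 held 1 of each, and the title series R2NB held 3 homozygous arrays. All 11 arrays carried the tissue label of day 17 kidney. The labels do not give the Robo2 allele, the strain, the number of animals behind an array or the meaning of NB, and other free-text labels speak of human brain. Nothing says that the arrays of a group came from separate animals, so p-values measure only the spread between these arrays, which may be technical.

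Slit proteins are secreted and bind the immunoglobulin domains of Robo receptors at the cell surface, and Srgap proteins bind the receptor tail and lower the activity of small GTPases, which act on the actin skeleton. The pathway is best known for turning axons away from the midline of the nervous system. In the kidney, Slit2 from the nephric duct and Robo2 in the nephrogenic mesenchyme limit the domain of Gdnf and with it the site of ureteric bud outgrowth, and Robo2 is also made by podocytes, the filtering cells of the glomerulus. Robo4 is a receptor of endothelial cells. Robo1 and Robo2 are next to each other on one chromosome with 0 protein-coding genes between them, and so are Robo3 and Robo4.

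Values are log2 of deposited intensities. The R2E17 and R2NB arrays form a set of 5 that had been normalized apart from the 6 E17R2 arrays, the set of 6. The median gene had a mean log2 level of 7.48 over R2E17 and R2NB and of 6.29 over E17R2, so levels are compared within a set, and across sets only as ranks or after a shared normalization. Probe sets differ in how well they bind, and a higher value of one gene than of another does not order the genes by transcript number. Kidney markers were bright on all arrays: the mean of 6 measured podocyte markers of 8 listed lay at percentiles 82.7 to 89.1 of the array, and that of 5 proximal tubule markers at 77.7 to 96.8. The mean of 10 brain markers lay at percentiles 32.7 to 46.8. Single brain markers differed widely, with Mbp at 75.1 to 82.1 and Olig2 at 0.97 to 6.09 over all arrays. Rbfox3 lay at 97.3 on E17R2 homozygous replicate 3 and at 59.7 to 65.6 on the rest of its set.

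Some arrays carried transcripts of neighbouring tissue. Among the E17R2 arrays, the mean of 6 adrenal cortex markers was 8.39 and 8.15 in wild-type replicates 1 and 2 and 6.72 in homozygous replicate 1, against 4.43 to 4.80 on the other 3. In the set of 5 it was 9.66 in R2NB replicate 2 and 4.84 to 5.0 on the other 4. The mean of 7 smooth muscle markers was 11.55 in E17R2 homozygous replicate 3 and 7.24 to 8.08 on the other arrays of its set. Skeletal muscle and liver marker means varied by array too. They ran over 3.81 to 8.18 and 7.17 to 10.75 within E17R2. Within the set of 5 they ran over 4.28 to 8.45 and 7.21 to 12.41. E17R2 wild-type replicates 1 and 2 were alike, at 4.96 and 4.86 for skeletal muscle and 7.20 and 7.26 for liver. Their sympathetic and chromaffin means were 7.36 and 7.37. Wild-type replicate 3 read 8.18, 10.75 and 5.06 for these lists. The labels do not say whether replicates 1 and 2 share an animal. The R2E17 wild-type array differed in RNA quality: its 3' probes exceeded its 5' probes by 0.70 (log2) for Gapdh and by 1.12 for Actb, while no other array passed 0.22 and 0.75.

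**Figure D1:**
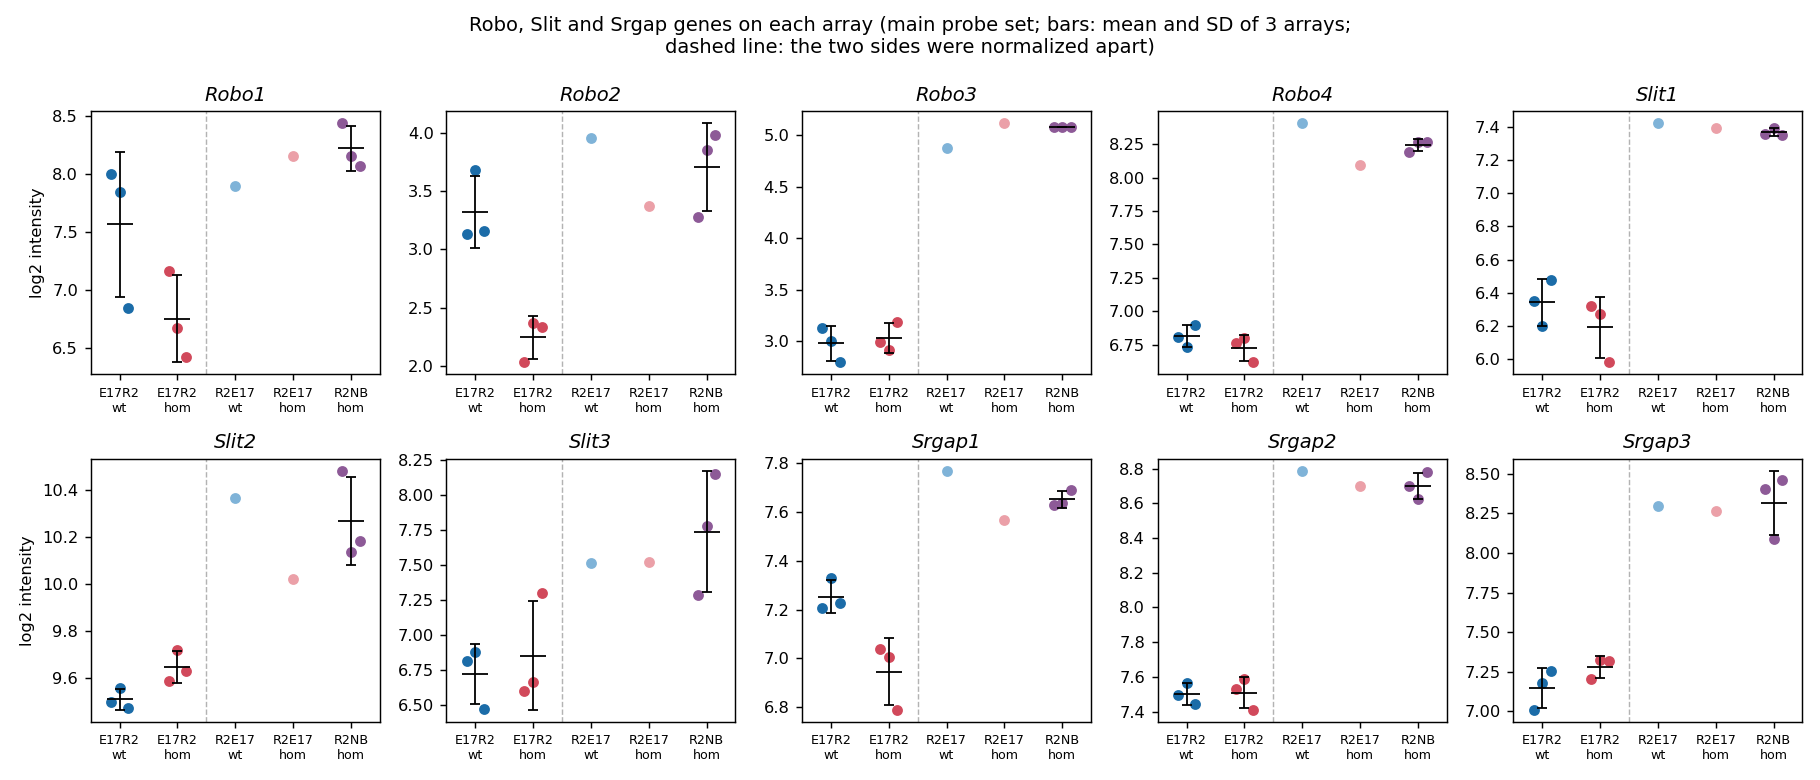
Log2 intensity of the main probe set of each gene (vertical axes, a scale of its own in each panel) on the 11 arrays by title series and genotype, where wt is wild-type and hom is Robo2 homozygous. Bars are the mean and SD of 3 arrays, and the dashed line separates arrays that were normalized apart. Within E17R2 the homozygous arrays lie below every wild-type array for Robo2 and Srgap1 and above every wild-type array for Slit2.

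Robo2, the receptor altered in these mice, read lower in every homozygous E17R2 array than in every wild-type one. Its log2 intensity was 3.13, 3.68 and 3.16 in E17R2 wild-type and 2.03, 2.37 and 2.33 in E17R2 homozygous kidneys. The lowest wild-type value thus lay 0.76 above the highest homozygous one. The group means were 3.32 ± 0.31 and 2.24 ± 0.19 (SD, n = 3 each). The log2 difference was -1.08 ± 0.18 (SE), with a 95% interval of -1.50 to -0.66 and a limma adjusted p of 0.840 (Benjamini-Hochberg), which misses the threshold of 0.05. By unadjusted p (5.745e-04) Robo2 was number 5 of the 18193 genes. In the R2E17 pair the wild-type array read 3.96 and the homozygous array 3.37, a difference of -0.59 with 1 array on each side. That wild-type array was also the one with the highest 3' minus 5' control values, and the part of RNA quality was not tested.

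The Robo2 signal was dim even in wild-type kidneys. In E17R2 its percentile on the array was 27.2, 38.1 and 26.1 in wild-type and 3.38, 9.54 and 8.82 in homozygous kidneys. For scale, 39 olfactory receptor genes, which are mostly silent outside the nose, were read on the same arrays. Of these 39, the number below Robo2 was 28, 35 and 25 on the wild-type arrays and 1, 2 and 6 on the homozygous ones. The wild-type signal therefore lay inside the range of mostly silent genes, and the homozygous signal near its lower end. The only probe set that names Robo2 is 1458229_at, and neither labels nor files place it relative to the altered part of the gene.

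Marker means of several kidney cell types separated by genotype in E17R2 alongside Robo2, that of podocytes among them. Of 12 marker lists, 4 had every homozygous mean below every wild-type one and 1 had every homozygous mean above. Among single genes 7.24% lay wholly lower and 5.05% wholly higher, and no such share was computed for list means. Single markers did not all follow their list. In the podocyte list Podxl, Ptpro and Nphs1 separated, while Cdkn1c, Synpo and Wt1 overlapped. In the stroma list Tcf21, Col1a1 and Pdgfra separated, while Foxd1, Pdgfrb and Meis1 overlapped. Only Aqp2 separated in the ureteric bud and collecting duct list. Kdr, Esam, Cdh5 and Pecam1 overlapped in the endothelial list, while every proximal tubule marker separated. The podocyte mean was 8.97, 8.99 and 9.01 in E17R2 wild-type and 8.68, 8.69 and 8.12 in E17R2 homozygous kidneys, with no overlap. Proximal tubule markers lay further apart, at 8.60 to 8.78 in wild-type and 7.17 to 8.23 in homozygous arrays. Ureteric bud and collecting duct markers lay at 8.68 to 8.73 and 8.30 to 8.64, and endothelial markers at 8.34 to 8.40 and 7.83 to 8.23. Stroma markers were the list on the higher side, at 9.32 to 9.64 in wild-type and 9.72 to 9.81 in homozygous arrays. The part of these lists in the Robo2 difference was not tested. All 4 lists on the lower side had their lowest mean on homozygous replicate 3, the array with the smooth muscle mean of 11.55. The part of that tissue in these means was not tested. Fewer podocytes, less RNA per podocyte and a larger share of other tissue cannot be told apart in whole kidney. In the R2E17 pair the podocyte mean was 10.09 in wild-type and 10.02 in homozygous, while Robo2 differed by -0.59. Nephron progenitor markers, the other known site of Robo2 in the kidney, had means of 7.86 to 7.93 in E17R2 wild-type and 7.74 to 8.08 in homozygous arrays, which overlap. The Robo2 difference was -1.38 among the E17R2 arrays with bright adrenal markers (2 wild-type, 1 homozygous) and -0.81 among the others (1 wild-type, 2 homozygous). Each of these values rests on 1 array on one side and was not tested.

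The R2NB arrays, homozygous by label, read 3.28, 3.86 and 3.99 for Robo2, and their percentiles were 15.8, 25.3 and 26.9. Replicates 2 and 3 lay next to the R2E17 wild-type array (percentile 26.7) and replicate 1 next to the R2E17 homozygous array (17.8). Of the 39 olfactory receptor genes, 16, 30 and 31 lay below Robo2 on the R2NB arrays. The R2E17 arrays exceeded 30 of them in wild-type and 21 in homozygous. The arrays labelled R2NB homozygous thus span the values of both R2E17 genotypes at this probe set. Their Gapdh 3' minus 5' values, 0.03, 0.18 and 0.22, had the same order as their Robo2 values, and a link was not tested.

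Robo1, which binds the same Slit ligands as Robo2, varied more between E17R2 arrays of one genotype than most genes. Its main probe set read 8.0, 7.85 and 6.84 in E17R2 wild-type and 7.16, 6.67 and 6.42 in E17R2 homozygous kidneys. Wild-type replicate 3 lay below homozygous replicate 1, so the groups overlap. The pooled SD within genotype in E17R2 was 0.52, above that of 96.4% of genes, while the SD over the R2NB arrays was 0.19 (n = 3). The log2 difference was -0.81 ± 0.34 (SE), with a 95% interval of -1.61 to -0.01 and a limma adjusted p of 0.840. Within R2E17 the homozygous array was the higher one, 8.15 against 7.89. A test of whether the genotype difference itself differed between R2E17 and E17R2 gave 1.07 ± 0.61 (SE), with an adjusted p of 0.579 in limma over all 11 arrays, where each single R2E17 array was assumed to vary like the replicated groups.

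The order of Robo1 among the E17R2 arrays followed that of the adrenal cortex markers. The 3 arrays with the highest adrenal means, at 8.39, 8.15 and 6.72, had the 3 highest Robo1 values, 8.0, 7.85 and 7.16. The genotype difference of Robo1 was -0.76 among these 3 arrays and -0.30 among the other 3, values with no test. In the set of 5 the array with bright adrenal markers, R2NB replicate 2 at 9.66, read 8.15 for Robo1. The R2E17 homozygous array, with an adrenal mean of 4.84, held the identical deposited value. Such ties occurred at 49.5% of all probe sets in the set of 5, so the match cannot be read as a comparison of levels. The part of adrenal tissue in the E17R2 values of Robo1 was not tested beyond these comparisons. The R2NB arrays read 8.43, 8.15 and 8.07.

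The 2 other Robo1 probe sets were dim and did not repeat the main one. Probe set 1457407_at had means of 3.81 ± 0.06 in wild-type and 3.96 ± 0.03 in homozygous E17R2 arrays (SD, n = 3 each), a difference of 0.15 with a limma adjusted p of 0.905 over all named probe sets, and its homozygous arrays all lay above the wild-type ones. Probe set 1445549_at had means of 2.77 ± 0.09 and 2.67 ± 0.13 (SD, n = 3 each), a difference of -0.09. Both lay below the brightest olfactory receptor genes on every array, with 31 to 36 and 13 to 30 of the 39 beneath them.

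Robo3, which lets commissural axons cross the midline, was dim on all E17R2 arrays. Its main probe set read 3.13, 3.00 and 2.79 in wild-type and 2.99, 2.91 and 3.19 in homozygous kidneys, with overlap. The difference was 0.05 ± 0.12 (SE, limma adjusted p = 0.952). It turned to -0.01 after a renewed quantile normalization, so it has no stable sign. The 2 Robo3 probe sets gave 0.24 and -0.24 within R2E17. The R2NB arrays read 5.08 each for the main probe set, an identical deposited value.

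Robo4, the endothelial receptor, varied least of the receptors between E17R2 arrays of one genotype. It read 6.81, 6.73 and 6.89 in E17R2 wild-type and 6.76, 6.80 and 6.62 in E17R2 homozygous kidneys, and the groups overlap. The difference was -0.09 ± 0.09 (SE), with a 95% interval of -0.30 to 0.13 and a limma adjusted p of 0.888. It was -0.03 without homozygous replicate 3 and -0.04 without wild-type replicate 3. The mean of 9 endothelial markers was 8.34 to 8.40 in wild-type and 7.83 to 8.23 in homozygous arrays, with no overlap. Robo4 and these markers were lowest on the same array, homozygous replicate 3. Within R2E17 Robo4 was lower in the homozygous array, 8.09 against 8.41, while the endothelial mean was 9.65 against 9.67. The R2NB arrays read 8.19, 8.27 and 8.27.

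**Figure D2:**
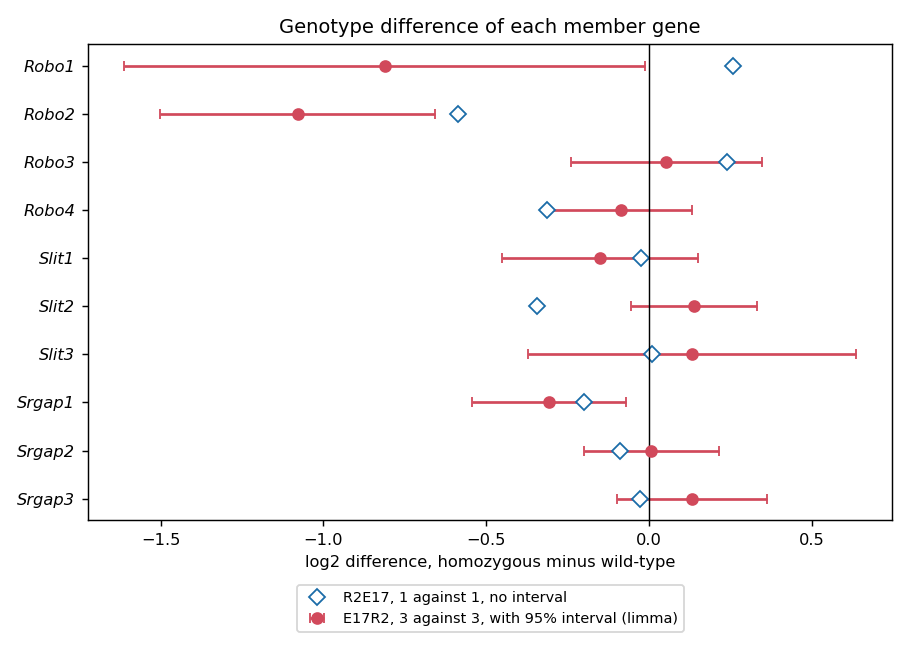
Log2 difference, homozygous minus wild-type, of the main probe set of each gene (horizontal axis). Filled circles with 95% intervals are E17R2 (3 against 3, limma), and open diamonds are the R2E17 pair (1 against 1). The intervals of Robo1, Robo2 and Srgap1 do not reach 0 in E17R2, and the pair lies on the other side of 0 for Robo1, Slit2, Srgap2 and Srgap3.

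Slit2, the ligand that acts with Robo2 on the ureteric bud, varied less between E17R2 arrays of one genotype than most genes. In E17R2 it read 9.50, 9.56 and 9.47 in wild-type and 9.58, 9.72 and 9.63 in homozygous kidneys. Every homozygous array lay above every wild-type one, by at least 0.03. The log2 difference was 0.14 ± 0.08 (SE), with a 95% interval of -0.06 to 0.33 and a limma adjusted p of 0.840. Its pooled SD in E17R2 of 0.06 was below that of all but 6.41% of genes, while its SD over the R2NB arrays was 0.19 (n = 3). Within R2E17 the homozygous array was the lower one, 10.02 against 10.37, and the R2NB arrays read 10.48, 10.14 and 10.18. The genotype difference of R2E17 minus that of E17R2 was -0.48 ± 0.20 (SE), with an adjusted p of 0.429 in limma, so a difference between title series was not shown.

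The 3 Slit2 probe sets disagreed most in the set of 5. Probe set 1458140_at read 8.48 in R2E17 wild-type and 6.21 in R2E17 homozygous, a difference of -2.27, and 5.98, 7.40 and 7.54 in the R2NB arrays. On the same arrays probe set 1451430_at read 6.01, 6.06, 6.38, 6.06 and 6.04. The R2E17 wild-type array, the highest for 1458140_at, was also the array with the highest 3' minus 5' control values, and the part of RNA quality was not tested. In E17R2 all 3 probe sets gave small differences, 0.14 for the main one, -0.07 for 1458140_at and -0.07 for 1451430_at. The R2E17 minus E17R2 genotype difference of 1458140_at was -2.20 ± 0.74 (SE), with a limma adjusted p of 0.287 over all named probe sets.

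**Figure D3:**
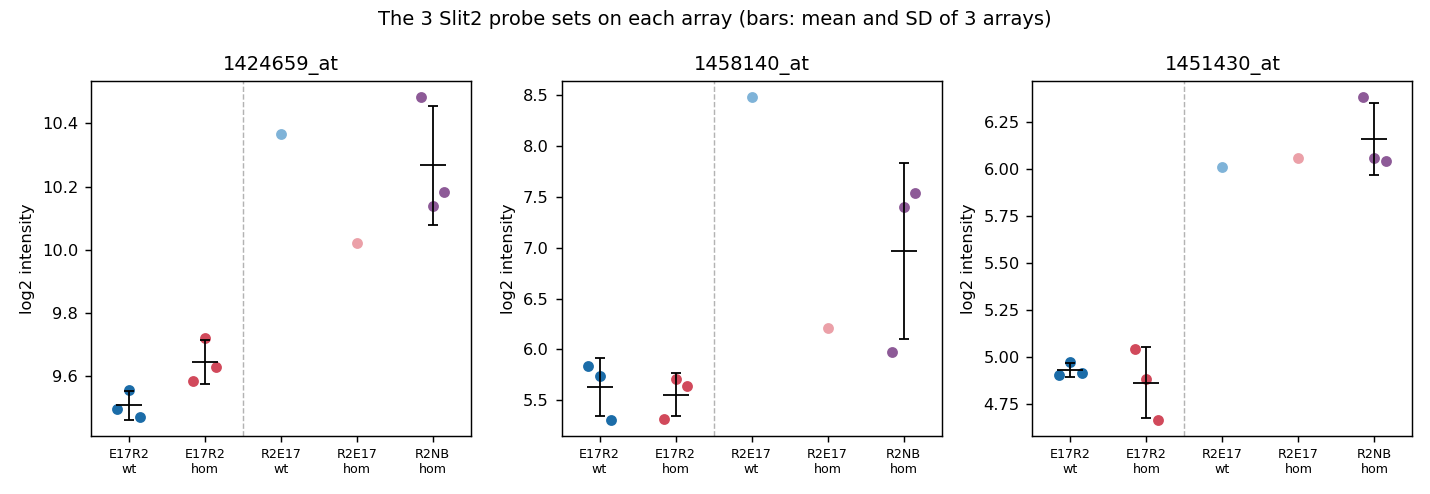
Log2 intensity of the 3 Slit2 probe sets (one panel each, with its own vertical scale) by title series and genotype, where wt is wild-type and hom is Robo2 homozygous. Bars are the mean and SD of 3 arrays. Probe set 1458140_at spans 5.98 to 8.48 over the set of 5, whereas the main probe set 1424659_at spans 10.02 to 10.48.

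Slit3, a ligand made by mesenchyme and smooth muscle in several organs, read 6.81, 6.88 and 6.47 in E17R2 wild-type and 6.60, 6.66 and 7.30 in E17R2 homozygous kidneys. Homozygous replicate 3 stood above the other 5 arrays, and the groups overlap. That array also had the smooth muscle mean of 11.55, and the part of smooth muscle in its Slit3 value was not tested. The difference was 0.13 ± 0.21 (SE, limma adjusted p = 0.928), and without that array it was -0.09, so its sign rests on 1 array. It was -0.25 among the 3 arrays with bright adrenal markers and 0.51 among the others, values with no test. In the set of 5 the highest Slit3 value, 8.15, and the highest smooth muscle mean, 9.91, were both those of R2NB replicate 3. The R2E17 pair read 7.51 in wild-type and 7.52 in homozygous.

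Slit1, a ligand best known from the brain, differed little between genotypes. Its main probe set read 6.35, 6.20 and 6.48 in E17R2 wild-type and 6.32, 6.27 and 5.98 in E17R2 homozygous kidneys, with overlap and a difference of -0.15 ± 0.13 (SE, limma adjusted p = 0.857). The value depended on single arrays: it was -0.04 without homozygous replicate 3 and -0.08 without wild-type replicate 3. Among the 3 arrays with bright adrenal markers it was 0.05, and among the other 3 it was -0.35, values with no test. The second probe set, 1440056_at, gave -0.15 as well. Within R2E17 the main probe set gave -0.03 and the second one 0.63. The main probe set spanned 7.35 to 7.42 over the set of 5.

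**Figure D4:**
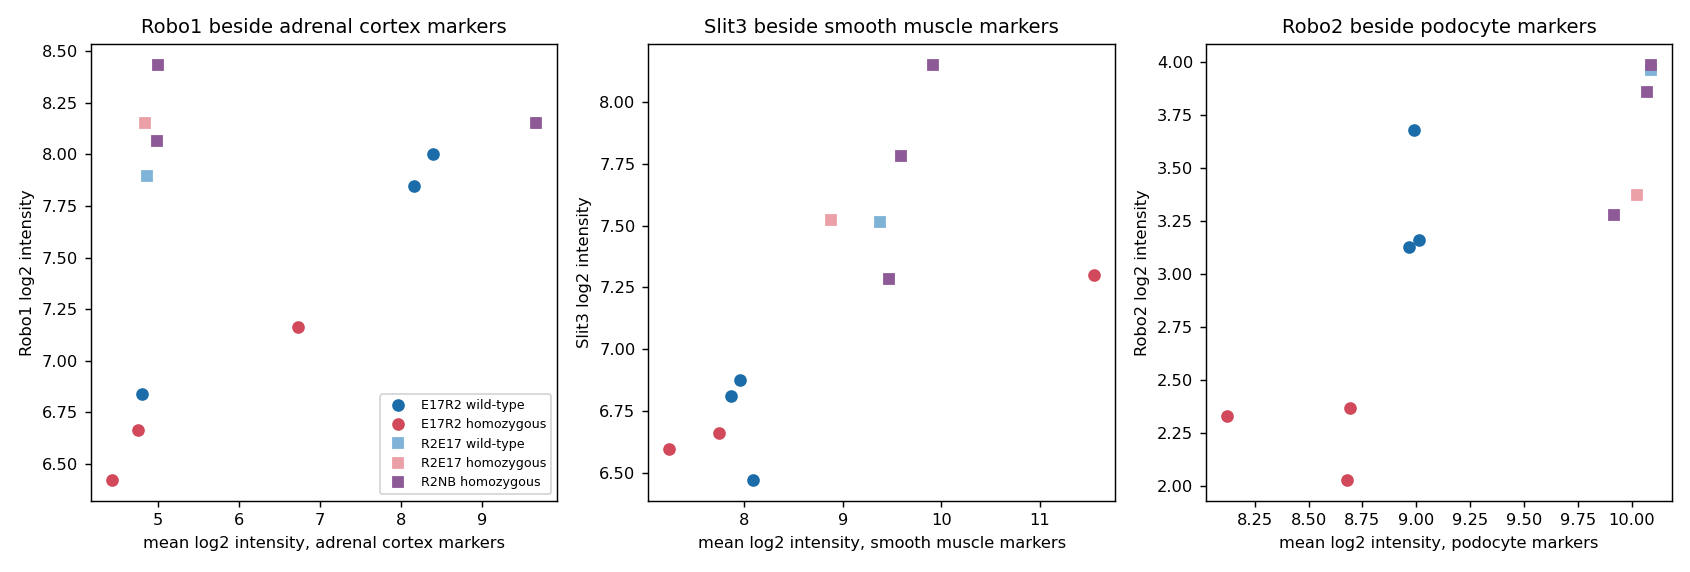
Log2 intensity of Robo1, Slit3 and Robo2 (vertical axes) against the mean log2 intensity of adrenal cortex, smooth muscle and podocyte markers (horizontal axes), with 1 point per array. Circles are the set of 6 and squares the set of 5, which were normalized apart and are to be read separately. Among the circles, Robo1 is highest on the 3 arrays with adrenal means of 6.72 to 8.39, and Slit3 is highest on the array with a smooth muscle mean of 11.55.

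Srgap1, whose product carries the Slit signal from Robo to Cdc42, was the second member with separate groups on the lower side. It read 7.21, 7.33 and 7.23 in E17R2 wild-type and 7.04, 7.01 and 6.79 in E17R2 homozygous kidneys. The group means were 7.25 ± 0.07 and 6.95 ± 0.14 (SD, n = 3 each). The log2 difference was -0.31 ± 0.10 (SE), with a 95% interval of -0.54 to -0.07, an unadjusted p of 0.0181 and a limma adjusted p of 0.840. It was -0.33 among the E17R2 arrays with dim adrenal markers and -0.23 among those with bright ones, values with no test. The R2E17 pair read 7.77 in wild-type and 7.57 in homozygous, a difference of -0.20. The R2NB arrays read 7.63, 7.64 and 7.69, between those 2 arrays. The second Srgap1 probe set, 1431719_a_at, was at background, with 2 to 11 of the 39 olfactory receptor genes below it, and its E17R2 difference was -0.12.

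Srgap2, which shapes membrane protrusions, was the least different member. Its main probe set had means of 7.5 ± 0.06 in wild-type and 7.51 ± 0.09 in homozygous E17R2 arrays (SD, n = 3 each), a difference of 0.01 with a 95% interval of -0.20 to 0.22 (limma adjusted p = 0.994). With the R2E17 arrays added it was -0.02, so it has no stable sign. The R2E17 pair alone gave -0.09. Of its 3 other probe sets, 1427967_at was dim (2.11 ± 0.13 against 2.36 ± 0.07, SD, n = 3 each, with no overlap) and gave 0.24, 1429884_at gave 0.12 and 1434407_at gave -0.16, with limma adjusted p values of 0.905 to 0.953 over all named probe sets. Probe set 1434407_at also spread over the R2NB arrays, at 7.06, 6.50 and 5.82.

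Srgap3, a relative best known from neurons, read 7.01, 7.18 and 7.26 in E17R2 wild-type and 7.20, 7.32 and 7.32 in E17R2 homozygous kidneys. The groups overlap, and the difference was 0.13 ± 0.10 (SE), with a 95% interval of -0.10 to 0.36 (limma adjusted p = 0.843). Without wild-type replicate 1 it was 0.06. The R2E17 pair gave -0.03. The dim second probe set, 1425741_at, gave 0.05.

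Robo2 had the smallest unadjusted p of the 10 members, and no member passed over the array as a whole. In E17R2, 0 of the 10 members and 0 of 18193 genes (0%) passed a limma adjusted p of 0.05. At an unadjusted p under 0.05 the members numbered 3 (Robo1, Robo2 and Srgap1), against 5.6% of all genes. For 2 members, Robo2 and Srgap1, every homozygous array lay below every wild-type array, which held for 7.24% of all genes. For 1 member, Slit2, every homozygous array lay above, which held for 5.05% of all genes. The R2E17 pair, whose wild-type array differed in RNA quality, gave the same sign as E17R2 for Robo2, Robo3, Robo4, Slit1, Slit3 and Srgap1. Members of one pathway are not independent replicates, and the median over all genes was -0.01 in E17R2.

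The other genes of the pathway showed no called difference either. The list held 38 genes for Slit co-factors, further Robo ligands and signalling partners, and 37 were measured. In E17R2, 0 passed the limma adjusted p in either direction, and 2 had an unadjusted p under 0.05. The list median was 0.01, beside -0.01 over all genes, and 16 of the 37 lay below 0. The smallest p belonged to Nphs1, which encodes nephrin of the podocyte slit diaphragm, to which Robo2 is linked through the adaptor Nck. Nphs1 read 6.28, 6.41 and 6.86 in E17R2 wild-type and 6.20, 5.83 and 5.10 in homozygous kidneys (-0.80 ± 0.29, SE, limma adjusted p = 0.840), and it is itself one of the podocyte markers listed above.

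The next gene by p was Nedd4, a ubiquitin ligase, at -0.49 ± 0.20 (SE). It read 12.18, 12.09 and 11.46 in E17R2 wild-type and 11.58, 11.44 and 11.26 in homozygous kidneys, and its 3 highest arrays were the 3 highest of Robo1. Within R2E17 Nedd4 was 1.04 higher in the homozygous array. Arhgap39, the mammalian Vilse GTPase-activating gene, gave 0.21 ± 0.09 (SE), and Dag1, which encodes the Slit-binding protein dystroglycan, gave -0.24 ± 0.12 (SE). The limma adjusted p was 0.840 for all 3. The pair gave -0.09 for Nphs1, 0.16 for Arhgap39 and -0.04 for Dag1.

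Members also differed in their place on the array between the set of 5 and the set of 6, a comparison in which normalization, title series and any difference between the kidneys cannot be told apart. Robo3 moved most. Its percentile ran from 39.1 to 43.8 over R2E17 and R2NB and from 18.4 to 27.3 over E17R2, with medians 16.8 points apart and no overlap. On the scale shared by all 11 arrays the log2 shift, adjusted for genotype, was 1.19 ± 0.10 (SE), with a limma adjusted p of 1.228e-05. Its second probe set moved the same way, by 0.52. In the set of 5 the main probe set exceeded 38 or 39 of the 39 olfactory receptor genes, against 16 to 28 in the set of 6.

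Srgap1 moved the other way. Its percentile ran from 68.7 to 71.5 over R2E17 and R2NB and from 73.8 to 78.0 over E17R2, without overlap, and its log2 shift was -0.56 ± 0.06 (SE, limma adjusted p = 3.184e-05). Slit2 was lower in the set of 5 as well, at percentiles 91.4 to 93.9 against 94.8 to 95.7, with a shift of -0.52 ± 0.10 (SE, limma adjusted p = 0.0012). That holds for its main probe set alone: the others gave 0.11 and 0.57 and did not pass. Robo4 was higher in the set of 5, by 0.31 ± 0.07 (SE, limma adjusted p = 0.00515), although the percentiles overlap (73.9 to 78.0 and 71.8 to 74.3). Without the R2NB arrays the Robo4 shift was 0.285 with an adjusted p of 0.0894.

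The main probe sets of the other 6 members did not pass. Robo2 had a shift of 0.52 ± 0.22 (SE, limma adjusted p = 0.0690), which was 0.82 (adjusted p = 0.0114) between homozygous arrays alone and -0.03 with only the array median aligned. Slit3 gave -0.38, Srgap3 -0.14, Robo1 -0.09, Slit1 -0.04 and Srgap2 0.02. The dim Robo1 probe sets moved in opposite directions, 1457407_at by -0.62 and 1445549_at by 0.36, both past the test. The second Slit1 probe set, 1440056_at, which exceeded 38 or 39 of the 39 olfactory receptor genes on every array, passed as well, with a shift of -0.49 (limma adjusted p = 0.0330 over all named probe sets). The second probe sets of Srgap1 (-0.13) and Srgap3 (0.11) and the 3 of Srgap2 (-0.18, -0.06 and 0.04) did not pass. Over all genes 24.2% were called higher in the set of 5 and 26.1% lower, so 2 of 10 members higher and 2 of 10 lower is near that background. Identical deposited values between arrays occurred at 10 of the 21 member probe sets in the set of 5 and at 1 of 21 in the set of 6, beside 49.5% and 5.31% of all probe sets. Robo3, which moved most, had such a tie across its R2NB arrays at the main probe set. The effect of these ties on the spread was not tested.

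**Figure D5:**
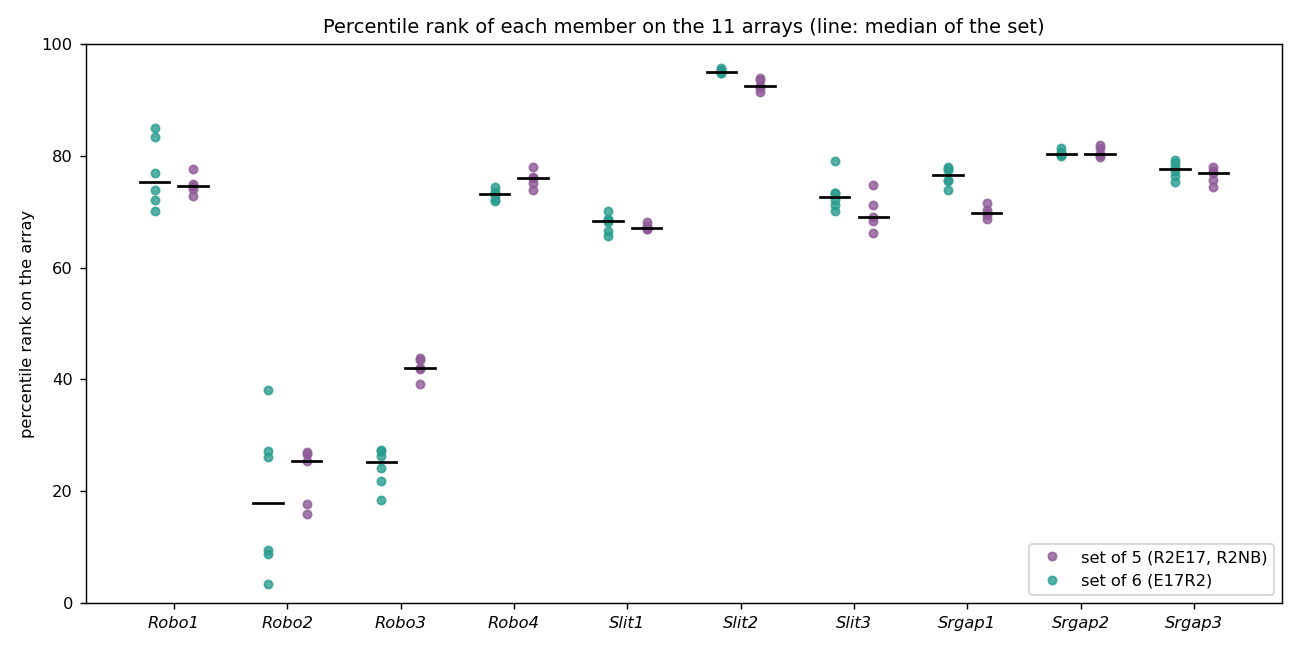
Percentile rank of the main probe set of each gene among all probe sets of an array (vertical axis), with 1 point per array and a line at the median of each set. The set of 6 is at the left and the set of 5 at the right of each gene. Robo3 sits 16.8 percentile points higher in the set of 5, and Srgap1 and Slit2 sit lower without overlap.

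Genes whose pattern most resembled that of a member were named by Pearson correlation of log2 values centred within each set, over 11 arrays. Candidates were the genes brighter than the median gene, 9096 for Robo2 and 9095 for Robo1, Slit2 and Slit3. The arrays share genotype, dissection and RNA quality, and how high the best of so many correlations would be by chance was not computed. These values are therefore descriptions. For Robo2 they were Sgms1 (r = 0.94), Mgat5 (0.91) and Ndrg1 (0.90), and for Robo1 they were Nckap1 (0.95), M6pr (0.93) and Tipin (0.93). For Slit2 they were Socs3 (0.91), Serinc2 (0.87) and Rhob (0.85). For Slit3 they were Ids (0.96), Tmed10 (0.94) and Klf7 (0.94).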

How the data were processed

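RNA of 11 arrays was labelled as biotinylated cRNA for Affymetrix 3' arrays, per the labels' protocols. The values deposited by the authors are linear intensity; the submitters' processing notes name RMA without a version. Values were above 0 on a linear scale, so log2 was taken without a pseudocount. Of 45101 probe sets, 64 controls were set aside and 34945 had 1 symbol in the platform annotation, of which 34741 were updated through a RefSeq table of assembly GRCm38.p6. Genotype was tested in the E17R2 arrays alone (3 against 3) with limma 3.58.1 in R 4.3.3 (lmFit, eBayes, 2-sided), and the sets after quantile normalization of all 11 arrays with set and genotype in the model. Benjamini-Hochberg adjustment ran over all 18193 genes, with a threshold of 0.05. Named genes were the members, the 4 pathway genes with the smallest p, and the 3 most similar genes for 4 members. Single marker genes were named, after the values were seen, mostly by whether they separated by genotype. Mrap was named because it was called with 1 array left out. Adrenal markers were called bright at a mean log2 of 6 or more, a division chosen after the values were seen, as was the test between title series. The members and lists were chosen with earlier results of these data known. On simulated data for E17R2, 100 genes were changed by 1 and 100 by 2 (log2) together, with noise independent between genes. Of these, 65% and 96% were recovered. Variation shared between the genes of an array was not simulated, so these shares do not give the power for a single member. Array number limits precision.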

Additional observations from a re-analysis of the deposited data

How the results depend on the processing

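Over all genes, 0 were called by genotype in limma in the main comparison (1019 at an unadjusted p under 0.05) and under 8 other settings, and 0 to 1 with 1 array left out. The gene called without E17R2 wild-type replicate 3 was Mrap (adjusted p = 0.00180). For members, 129 of 138 tested alternative values kept sign and call, and 9 turned sign. Those that turned sign were of Robo3 (-0.0075 with renewed quantile normalization, -0.038 to 0.131 with 1 array left out), Slit3 (-0.0905 to 0.2607) and Srgap2 (-0.0166 with the R2E17 arrays added, -0.0311 to 0.0564). Of 20 untested values within arrays of bright or dim adrenal markers, 4 turned sign, all among bright ones: Robo3 (-0.0743), Slit1 (0.0481), Slit3 (-0.2469) and Srgap2 (-0.0014). With the dimmest genes filtered out, Robo2 and Robo3 gave no value. Leaving out 1 array gave -1.18 to -0.90 for Robo2, -0.36 to -0.23 for Srgap1, -1.17 to -0.59 for Robo1, -0.22 to -0.04 for Slit1, -0.13 to -0.03 for Robo4 and 0.06 to 0.19 for Srgap3. With the R2E17 arrays added (4 against 4) Slit2 gave 0.02. Between the sets, 9159 genes were called, and 5243 with R2E17 against E17R2 only. Under other settings of the set comparison, signs turned for Robo1 (0.2165 between homozygous arrays), Robo2 (-0.0312 with the array median aligned) and Srgap2 (-0.0377 between homozygous arrays). With 1 array left out the shifts ran from -0.2435 to 0.2164 for Robo1, from -0.0954 to 0.0029 for Slit1 and from -0.0376 to 0.0501 for Srgap2. The cause of these changes was not tested. Robo2 passed without R2E17 wild-type replicate 1 or E17R2 wild-type replicate 2, and Slit3 passed without R2NB replicate 3. Robo2 and the dim probe sets are limited by signal near that of mostly silent genes.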
